A study of Mus musculus with 9 samples.

Results

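Transcripts of 42 genes for the repair of DNA crosslinks and alkylated bases were followed in mouse ovary. The genes were chosen by symbol from 4 branches of repair, namely the Fanconi anemia pathway, homologous recombination, translesion synthesis and the repair of alkyl adducts. All 42 symbols were found among the 22544 rows of the expression table, and 0 were missing. Polyadenylated RNA of whole ovary had been sequenced in 3 groups of 3 libraries, 9 in all. The CTX group carries the usual abbreviation of cyclophosphamide, the HBOT group received CTX together with hyperbaric oxygen per the design text, and the labels of the NC group name neither agent. Strain, age, dose, times and the number of animals behind a library are not stated in the labels. As the labels do not tie replicates to different animals, p-values here reflect the variation among these libraries, which may be technical.

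Cyclophosphamide is converted in the body to a mustard that alkylates guanine and ties the strands of DNA together. In the Fanconi anemia pathway a core complex puts ubiquitin on FANCD2 and FANCI at a stalled replication fork, nucleases then cut the crosslink free on one strand, translesion polymerases copy past the remnant, and homologous recombination, in which BRCA2 takes part, mends the break. Smaller alkyl lesions are removed by direct reversal or by a glycosylase. In the ovary these genes matter to germ cells, which pass through meiotic recombination before birth, and to the dividing granulosa cells of growing follicles. Ovarian tissue holds many cell types. In such bulk RNA, fewer cells of a type and less RNA per cell cannot be told apart.

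The repair genes were transcribed at low to moderate levels. FPKM is scaled to transcript length and to the size of the library, so levels of different genes can be set side by side. Mean FPKM over the 9 libraries ran from 1.37 for Fancb, a subunit of the core complex, to 19.8 for Ercc1, a subunit of a crosslink nuclease. The median of the 42 means was 5.86 FPKM, against 11.7 over the 13338 rows with at least 1 FPKM in at least 3 libraries, which were the rows tested. Of the 42 genes, 20 had a mean under 5 FPKM and 11 a mean over 10 FPKM. All 42 passed the filter, and 40 reached 1 FPKM in all 9 libraries. The exceptions were Fancb and the helicase gene Brip1, each at 0.95 to 0.98 FPKM in NC replicate 1. Spread over the 9 libraries was like that of other genes, with a median coefficient of variation of 19.95% for the repair genes and 18.9% for all rows tested.

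**Figure D1:**
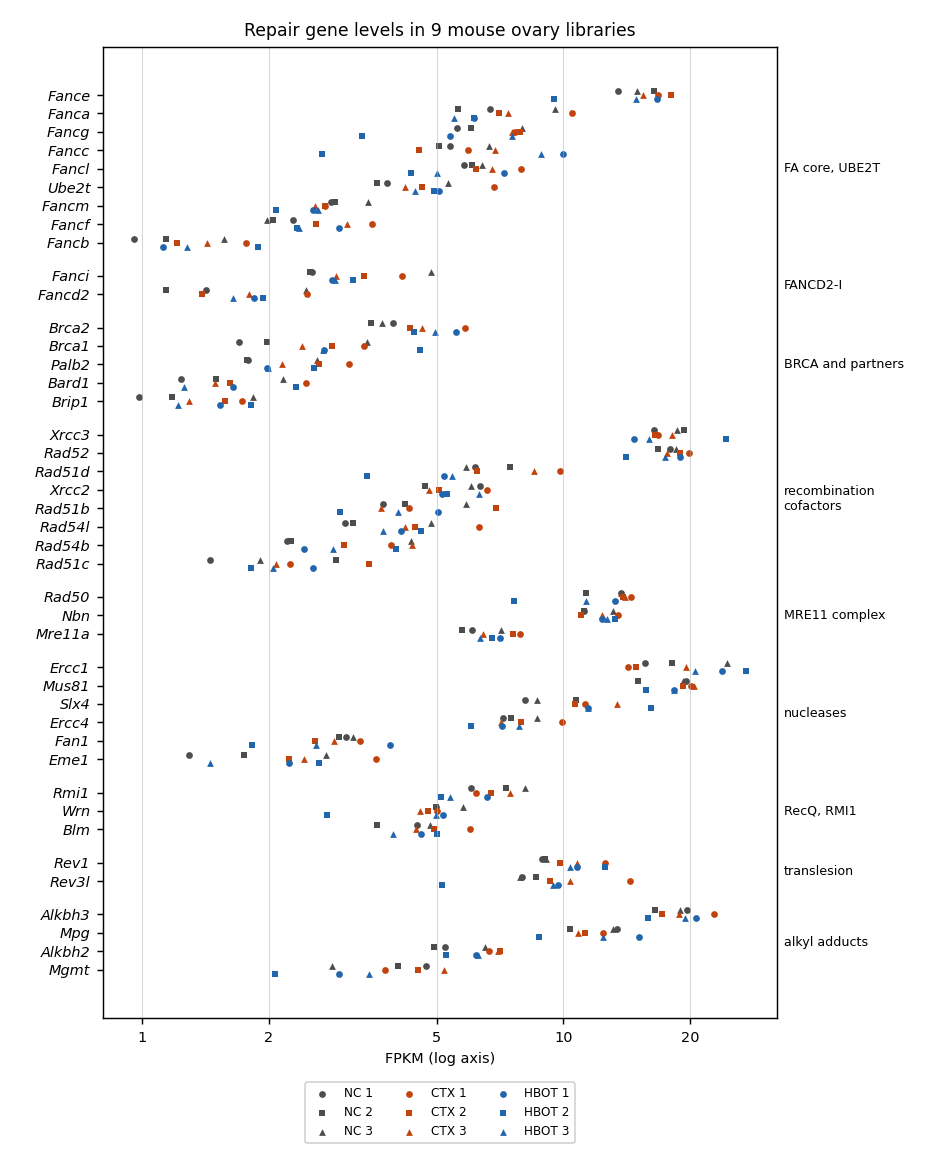
FPKM of the 42 repair genes on a log axis, by role, with 1 point per library (colour for the group, shape for the replicate). Levels run from about 1 FPKM for Fancb to over 20 for Ercc1, and for most genes the points of the 3 groups intermingle.

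Each set of markers of the expected cell types had a sum above 0 FPKM in all libraries. None of the marker genes examined was at 0 FPKM throughout, but some were too low for the filter. These included the immune markers Cd8a, Cd79a and Ms4a1 and the erythroid marker Slc4a1. Of 8 genes of the ovulatory response, 2 passed. HBOT replicate 2 stood apart: 8 genes of the ovulatory response summed to 904 FPKM in it and to 6.44 to 24.6 FPKM elsewhere. It held the lowest value of the 9 libraries for 44.1% of the rows tested. The sum of 12 oocyte markers was 163 to 228 FPKM in NC, 253 to 377 in CTX and 360 to 412 in HBOT. Sums of 10 immune markers (9.88 to 12.6 FPKM in NC, 21.8 to 49.2 in CTX, 33.5 to 49.2 in HBOT) and of 6 erythroid markers (62.9 to 207, 387 to 817 and 317 to 735 FPKM) were also higher in CTX and HBOT than in NC. Between HBOT and CTX, 11 of 12 oocyte markers had a log2 fold change above 0, while all 5 erythroid markers tested were below 0. The sum of 7 corpus luteum markers was 2818 to 3481 FPKM in NC and 535 to 1036 in CTX. In HBOT replicates 1, 2 and 3 it was 793, 1198 and 3673 FPKM. A single gene, Akr1c18, averaged 2367 ± 209 FPKM in NC, 189 ± 87.9 in CTX and 1154 ± 1472 in HBOT (mean ± SD). The sums of granulosa markers (10 genes, 1633 to 2338, 1664 to 2669 and 1939 to 2537 FPKM) overlapped between groups. So did those of theca and stroma markers (6 genes, 6189 to 9114, 4366 to 9289 and 5154 to 6253 FPKM). Single genes within a sum could differ in opposite directions. In HBOT against NC, 1 gene of each set was higher in every library and 1 was lower. By mean, Cyp17a1 was at 555 FPKM in HBOT and 70.2 in NC, and Hsd3b1 at 1908 and 3496. The part of these cell types in the values below was not tested.

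The comparison of CTX with NC bears on repair genes after an alkylating drug. Most of the repair genes had slightly higher levels in CTX. The log2 fold change of FPKM + 1 was above 0 for 34 of 42 genes (81%), against 59.5% of all rows tested. Its median was 0.16 for the repair genes and 0.05 for all rows. No single gene passed: limma with Benjamini-Hochberg adjustment called 0 of the 42, and 0 of 13338 rows (0%), at an adjusted p under 0.05. The smallest adjusted p among the repair genes was 0.557. At an unadjusted p under 0.05 stood Fancf and Brca2, 2 of 42 (4.76%), where 7.98% of all rows did. All 3 CTX libraries lay above all 3 NC libraries for Fancf, Brca2, Rad50, Rev1, Rev3l and Alkbh2, 6 genes (14.3%, against 13.2% of all rows), and below them for Fancm alone (2.38%, against 7.8%). These shares of separated genes are near or below the background.

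The count of higher genes leaned most on 1 library, but the median also moved with the NC libraries. Without CTX replicate 1, 27 of 42 genes were higher in CTX, against 55.6% of all rows, with a median of 0.09, and 0 had an unadjusted p under 0.05 (5.28% of all rows). Without NC replicate 1 the count was 32 (56.9% of all rows) and the median 0.11. Without NC replicate 2 they were 31 (59.9%) and 0.10, and without NC replicate 3 they were 35 (60%) and 0.24. Under median-of-ratios scaling the count was 32 of 42, but the share of all rows above 0 was 48.9%.

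Setting HBOT beside CTX shows the repair genes with and without hyperbaric oxygen after the same drug. Most repair genes had lower levels in HBOT than in CTX, with a median log2 fold change of -0.16 against -0.07 over all rows. It was above 0 for 10 of 42 genes (23.8%), against 38.4% of all rows. With median-of-ratios scaling 14 of 42 were higher (49.3% of all rows), and with quantile normalization 15 (48.6%). By limma 0 of 42 genes and 0 of 13338 rows (0%) were called, and the smallest adjusted p of a repair gene was 0.710. Rad51d, Ercc1 and Mgmt had an unadjusted p under 0.05, 3 of 42 (7.14%, against 6.09% of all rows). Ercc1 alone was higher in every HBOT library than in every CTX library (2.38%, against 3.76%). Fanca, Rad51d, Mus81, Rad50, Mgmt and Alkbh2 were lower in every HBOT library, 6 genes (14.3%, against 6.44%). HBOT replicate 2 held the lowest value of all 9 libraries for 3 of these 6, Rad51d, Rad50 and Mgmt. Without HBOT replicate 2 the count of higher genes was 9 of 42, against 49.2% of all rows. The median was then -0.11, while the median over all rows was -0.003. Without CTX replicate 1 the count was 16 of 42, against 43.8% of all rows. Its median was -0.08, against -0.04 over all rows.

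Between HBOT and NC the repair genes were evenly split. The log2 fold change was above 0 for 22 of 42 (52.4%), against 47.6% of all rows, with a median of 0.03 against -0.01. Limma called 0 of 42 genes and 0 of 13338 rows (0%), with a smallest adjusted p of 0.375 among the repair genes. Brca2, Slx4 and Rev1 had an unadjusted p under 0.05, 3 of 42 (7.14%), below the 11.9% of all rows. Every HBOT library lay above every NC library for Fancf, Brca2, Slx4 and Rev1, 4 genes (9.52%, against 10.9%), and below for Fancm and Rad51d, 2 genes (4.76%, against 9.6%). The 3 comparisons share libraries in pairs and are not independent of each other.

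**Figure D2:**
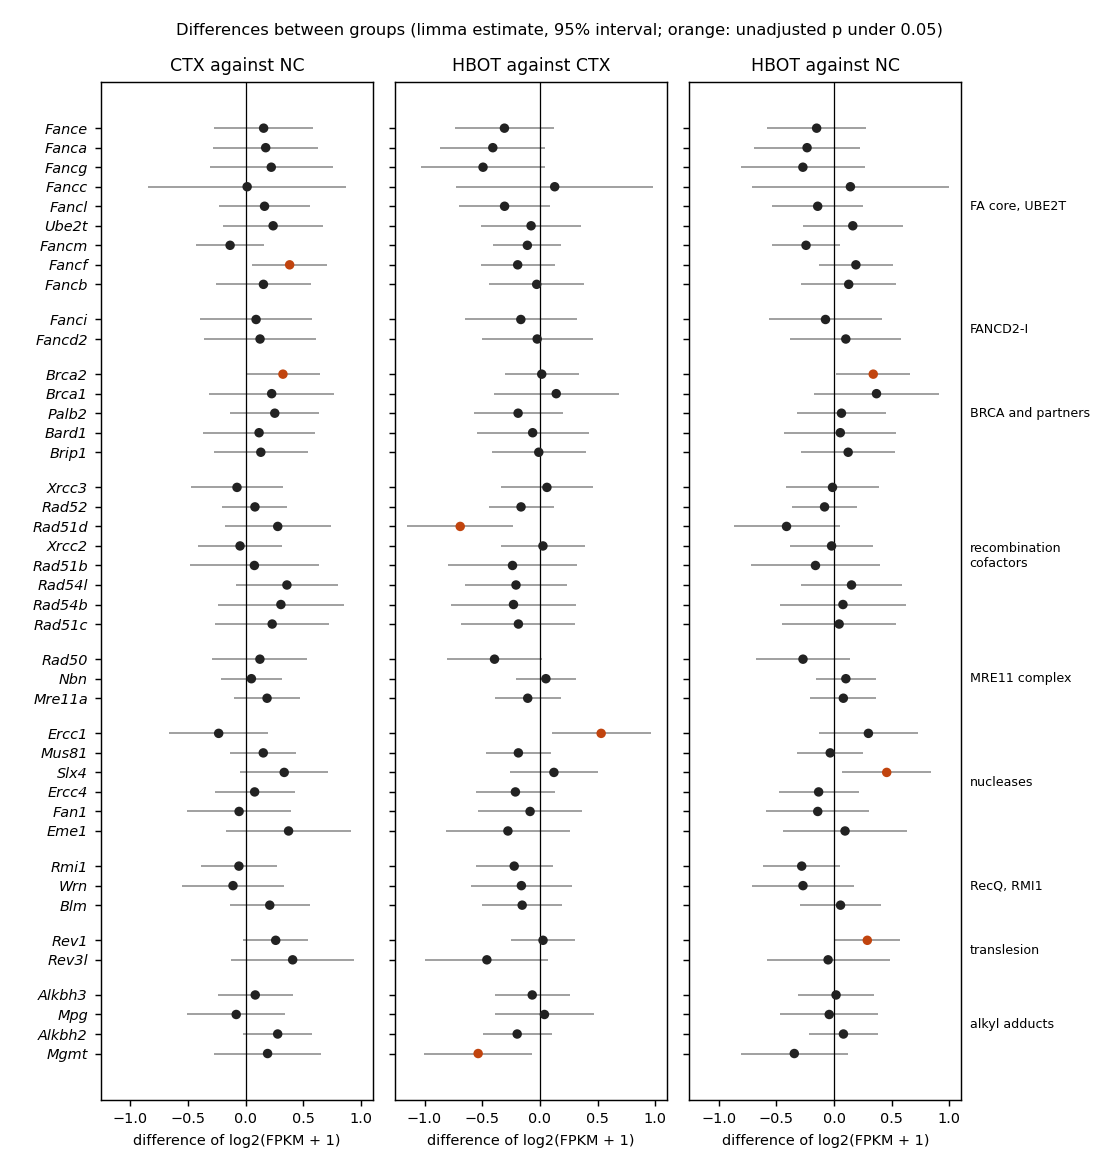
Difference of mean log2(FPKM + 1) between groups for each of the 42 genes, as the limma estimate with its 95% interval, in 3 panels for the 3 comparisons. Orange marks an unadjusted p under 0.05 (2, 3 and 3 genes), and 0 genes passed after adjustment.

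The Fanconi core complex is a ubiquitin ligase, with FANCL as its catalytic subunit and UBE2T as the conjugating enzyme it works with. In CTX against NC, 8 of these 9 genes had a log2 fold change above 0 (median 0.16), against 59.5% of all rows. In HBOT against CTX 1 of 9 did (median -0.19), against 38.4% of all rows. Fance (ENSMUSG00000007570), whose product bridges the complex to FANCD2, had the highest level of the group, at 13.5, 16.4 and 15.0 FPKM in NC, 16.8, 18.03 and 15.5 in CTX and 16.7, 9.50 and 14.9 in HBOT. The value of 9.50 in HBOT replicate 2 was its lowest, and the 3 groups overlapped. Fancf (ENSMUSG00000092118), an adaptor within the complex, was at 2.28, 2.04 and 1.98 FPKM in NC, 3.51, 2.58 and 3.06 in CTX and 2.93, 2.34 and 2.36 in HBOT. All CTX and all HBOT libraries exceeded the 3 NC libraries. The log2 fold change in CTX against NC was 0.38 (SE 0.14, limma adjusted p = 0.557).

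Fancm (ENSMUSG00000055884), the DNA translocase that brings the core complex to the fork, went the other way. It was at 2.81, 2.87 and 3.43 FPKM in NC, 2.71, 2.72 and 2.57 in CTX and 2.54, 2.08 and 2.62 in HBOT, so that every NC library was above the other 6. The gap was small, with log2 fold changes of -0.13 (SE 0.13, limma adjusted p = 0.890) in CTX and -0.24 (SE 0.13, limma adjusted p = 0.479) in HBOT against NC. Of the other subunits, Fanca stood at 7.29 ± 2.03 FPKM in NC, 8.30 ± 1.89 in CTX and 5.92 ± 0.353 in HBOT (mean ± SD, n = 3). Fancc varied most in HBOT, at 9.99, 2.67 and 8.85 FPKM. It averaged 5.70 ± 0.851 in NC and 5.79 ± 1.18 in CTX. Fancg was at 6.53 ± 1.28, 7.71 ± 0.174 and 5.42 ± 2.11 FPKM in NC, CTX and HBOT, Fancl at 6.09 ± 0.302, 6.97 ± 0.885 and 5.53 ± 1.52, Ube2t at 4.25 ± 0.945, 5.23 ± 1.43 and 4.82 ± 0.328, and Fancb at 1.22 ± 0.312, 1.46 ± 0.278 and 1.43 ± 0.405.

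FANCD2 and FANCI form the clamp that the core complex marks with ubiquitin. Fanci (ENSMUSG00000039187) was at 2.54, 2.497 and 4.84 FPKM in NC, 4.13, 3.37 and 2.89 in CTX and 2.83, 3.17 and 2.87 in HBOT. Its highest value was that of NC replicate 3, so the NC group spanned both other groups. Fancd2 showed the same high NC replicate 3, with means of 1.67 ± 0.688, 1.88 ± 0.544 and 1.81 ± 0.149 FPKM in NC, CTX and HBOT.

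BRCA2 is a mediator of homologous recombination, PALB2 ties it to BRCA1, BARD1 is the partner of BRCA1 in a ubiquitin ligase, and BRIP1 is a helicase that binds BRCA1. All 5 genes had a log2 fold change above 0 in CTX against NC (median 0.23), against 59.5% of all rows. All 5 did in HBOT against NC (median 0.12), against 47.6% of all rows, and 0 of them were called. Over the alternative settings Bard1 went as low as -0.03 in CTX against NC. In HBOT against NC Bard1 went to -0.09 and Palb2 to -0.02. Brca2 (ENSMUSG00000041147) was at 3.94, 3.50 and 3.70 FPKM in NC, 5.85, 4.33 and 4.61 in CTX and 5.56, 4.42 and 4.95 in HBOT. The 3 NC libraries were the lowest of the 9, and CTX and HBOT overlapped. Its log2 fold change was 0.32 in CTX (SE 0.14, limma adjusted p = 0.621) and 0.34 in HBOT (SE 0.14, limma adjusted p = 0.407) against NC, and 0.02 in HBOT against CTX.

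Brca1 (ENSMUSG00000017146) was at 1.70, 1.97 and 3.42 FPKM in NC, 3.36, 2.83 and 2.40 in CTX and 2.70, 4.58 and 2.69 in HBOT. Its groups overlapped, and its highest value was that of HBOT replicate 2, without which the log2 fold change in HBOT against CTX went from 0.14 (SE 0.24) to -0.06. Palb2 averaged 2.05 ± 0.478, 2.63 ± 0.475 and 2.17 ± 0.329 FPKM in NC, CTX and HBOT. Bard1, at 1.63 ± 0.477, 1.85 ± 0.522 and 1.74 ± 0.541, and Brip1, at 1.33 ± 0.446, 1.53 ± 0.222 and 1.52 ± 0.300, differed by less than their SDs.

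Upstream sequence is shown for 4 genes: Brca2 and Bard1 because they hold letters of an E2F site, the element through which E2F factors drive genes at the start of S phase, and Brca1 and Fancb because they varied most closely with S-phase markers across libraries, as described further on. The stretches come from RefSeq windows of the 250 bases before the annotated start, on GRCm38.p6, which is not the build of the expression table, and leave out bases covered by an annotated exon. Each reads 5′ to 3′ along the gene's strand, with the E2F letters (Brca2, Bard1) or the CCAAT box (Brca1, Fancb), a promoter element bound by the factor NF-Y, in capitals.
Brca2, chr5:150522397-150522516, plus strand: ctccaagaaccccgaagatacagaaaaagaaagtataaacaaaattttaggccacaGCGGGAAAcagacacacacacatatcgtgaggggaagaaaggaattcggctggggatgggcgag
Bard1, chr1:71103147-71103222, minus strand: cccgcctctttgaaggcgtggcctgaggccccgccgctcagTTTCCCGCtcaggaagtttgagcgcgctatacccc
Brca1, chr11:101551980-101552099, minus strand: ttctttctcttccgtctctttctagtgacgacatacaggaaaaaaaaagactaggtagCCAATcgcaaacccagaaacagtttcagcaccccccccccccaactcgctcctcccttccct
Fancb, chrX:164980376-164980495, plus strand: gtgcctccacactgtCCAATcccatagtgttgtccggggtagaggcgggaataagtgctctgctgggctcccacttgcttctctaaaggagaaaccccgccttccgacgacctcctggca

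The marked letters begin 168 bases before the annotated start in Brca2, 209 in Bard1, 86 in Brca1 and 201 in Fancb. Annotated exons were listed for 3 of these windows: of Bard1 itself for Bard1, of Nbr1 for Brca1 and of Mospd2 for Fancb. Promoter windows were matched for 34 of the 42 genes, all but Fancd2, Rad51d, Xrcc2, Rad54b, Wrn, Nbn, Rad50 and Rev3l. Searched on both strands, the E2F letters TTTCCCGC, TTTGGCGC, TTTCGCGC or TTTGCCGC occurred in 3 of the 34 (8.82%), in Brca2, Bard1 and Fancg, against 3.9% of the 10298 tested genes with a window and 2.16% of all 27025 genes in the RefSeq window table. CCAAT occurred in 18 of 34 (52.9%), against 40.5% and 37.5%. The letters TTTGAA or TTTAAA of the CHR element, found in promoters of mitotic genes, occurred in 4 of 34 (11.8%), against 20.8% and 28.1%. Median GC content was 58.8% in the windows of the repair genes and 59.6% in those of all tested genes. A match describes the letters only.

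RAD51B, RAD51C, RAD51D, XRCC2 and XRCC3 are related proteins that assist homologous recombination, RAD52 anneals single strands, and RAD54L and RAD54B are motor proteins of the same process. Of these 8 genes, 6 had a log2 fold change above 0 in CTX against NC (median 0.16), against 59.5% of all rows. In HBOT against CTX 2 did (median -0.20), against 38.4% of all rows. Xrcc3 (ENSMUSG00000021287), the highest of the group by mean with Rad52 (each 17.8 FPKM), was at 16.4, 19.4 and 18.6 FPKM in NC, 16.7, 16.5 and 18.1 in CTX and 14.7, 24.3 and 16.0 in HBOT. HBOT held both its lowest and its highest value, the latter in HBOT replicate 2. Rad51d (ENSMUSG00000018841) had the smallest p of all 42 genes in any comparison. It was at 6.16, 7.48 and 5.88 FPKM in NC, 9.83, 6.23 and 8.52 in CTX and 5.22, 3.42 and 5.44 in HBOT. The 3 HBOT libraries were the 3 lowest of the 9, while CTX replicate 2 lay within the NC range.

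In HBOT against CTX the log2 fold change of Rad51d was -0.69 (SE 0.20, limma adjusted p = 0.710), and in HBOT against NC -0.41 (SE 0.20, limma adjusted p = 0.449). Over 20 other settings it stayed between -0.85 and -0.39 in HBOT against CTX, where the smallest adjusted p was 0.403. The motor protein genes stood higher in CTX by mean, Rad54l at 3.69 ± 1.02, 4.99 ± 1.15 and 4.14 ± 0.436 FPKM in NC, CTX and HBOT and Rad54b at 2.94 ± 1.22, 3.76 ± 0.687 and 3.08 ± 0.815, within the spread of the libraries. Rad52 was among the steadiest, at 17.7 ± 0.871, 18.8 ± 1.15 and 16.8 ± 2.46 FPKM. Rad51b averaged 4.59 ± 1.12, 4.97 ± 1.70 and 4.01 ± 1.05 FPKM, Rad51c 2.08 ± 0.734, 2.59 ± 0.755 and 2.13 ± 0.372, and Xrcc2 5.70 ± 0.879, 5.48 ± 0.962 and 5.58 ± 0.625.

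The MRE11 complex senses and trims broken DNA ends. Rad50 (ENSMUSG00000020380), its ATPase, was at 13.7, 11.3 and 13.7 FPKM in NC, 14.5, 13.8 and 14.02 in CTX and 13.3, 7.63 and 11.3 in HBOT. The CTX libraries were the 3 highest by a narrow margin, and HBOT replicate 2 was the lowest of the 9. In HBOT against CTX its log2 fold change was -0.39 (SE 0.18, limma adjusted p = 0.710). Nbn, the subunit that links the complex to the kinase ATM, varied least of the 42 genes, with a coefficient of variation of 7.76% and means of 11.8 ± 1.12, 12.3 ± 1.23 and 12.8 ± 0.496 FPKM. The nuclease gene Mre11a averaged 6.32 ± 0.720, 7.32 ± 0.764 and 6.72 ± 0.364 FPKM in NC, CTX and HBOT.

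SLX4 is the scaffold that brings nucleases to a crosslink, ERCC1 and ERCC4 form the nuclease that cuts beside it, MUS81 and EME1 cut branched DNA, and FAN1 is a further nuclease of the pathway. Ercc1 (ENSMUSG00000003549), the highest of the 42 genes, was at 15.7, 18.2 and 24.4 FPKM in NC, 14.3, 14.9 and 19.5 in CTX and 23.8, 27.2 and 20.6 in HBOT. Its HBOT libraries lay above all CTX libraries, but NC replicate 3 lay within the HBOT range. The log2 fold change was 0.53 in HBOT against CTX (SE 0.19, limma adjusted p = 0.710) and -0.23 in CTX against NC (SE 0.19, limma adjusted p = 0.855). Ercc4, which encodes its partner, was at 7.79 ± 0.770, 8.33 ± 1.45 and 7.02 ± 0.916 FPKM in NC, CTX and HBOT, with a log2 fold change of -0.21 in HBOT against CTX (SE 0.15, limma adjusted p = 0.711). That the 2 genes differed in response was not tested.

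Slx4 (ENSMUSG00000039738) was at 8.09, 10.7 and 8.66 FPKM in NC, 11.3, 10.6 and 13.4 in CTX and 11.4, 16.1 and 11.5 in HBOT. Every HBOT library exceeded every NC library, and CTX overlapped NC through a single library of each. Its log2 fold change in HBOT against NC was 0.46 (SE 0.17, limma adjusted p = 0.375), the largest upward difference of the 42 genes in that comparison. In HBOT against CTX it was 0.12 (SE 0.17), and -0.03 without HBOT replicate 2. Mus81 averaged 17.9 ± 2.53, 19.9 ± 0.662 and 17.4 ± 1.48 FPKM, its partner Eme1 1.92 ± 0.736, 2.75 ± 0.738 and 2.10 ± 0.602, and Fan1 3.05 ± 0.115, 2.90 ± 0.361 and 2.76 ± 1.04.

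BLM and WRN are helicases of the RecQ family, and RMI1 helps BLM to dissolve joined DNA molecules. Rmi1 (ENSMUSG00000035367) was at 6.03, 7.31 and 8.12 FPKM in NC, 6.20, 6.73 and 7.48 in CTX and 6.60, 5.11 and 5.39 in HBOT. The groups overlapped in all 3 comparisons, HBOT and NC through the first replicate of each, and its log2 fold change in HBOT against NC was -0.28 (SE 0.15, limma adjusted p = 0.474). Wrn (ENSMUSG00000031583) was even across libraries but for a single one, at 4.99, 4.97 and 5.76 FPKM in NC, 5.01, 4.77 and 4.56 in CTX and 5.17, 2.74 and 4.98 in HBOT. The low value was that of HBOT replicate 2, and in CTX against NC the log2 fold change was -0.11 (SE 0.19, limma adjusted p = 0.952). Blm averaged 4.31 ± 0.634, 5.14 ± 0.779 and 4.51 ± 0.531 FPKM.

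REV1 is a scaffold and polymerase of translesion synthesis, and REV3L is the catalytic subunit of polymerase zeta. Rev1 (ENSMUSG00000026082) was almost constant in NC, at 8.89, 9.06 and 9.07 FPKM, and above that in all other libraries, at 12.5, 9.83 and 10.8 in CTX and 10.8, 12.6 and 10.4 in HBOT. Its log2 fold change was 0.26 in CTX (SE 0.12, limma adjusted p = 0.664) and 0.29 in HBOT (SE 0.12, limma adjusted p = 0.414) against NC. Rev3l was at 7.996, 8.63 and 7.87 FPKM in NC, 14.4, 9.29 and 10.3 in CTX and 9.73, 5.14 and 9.47 in HBOT. CTX replicate 1 was its highest library and HBOT replicate 2 its lowest, and its log2 fold change of 0.41 in CTX against NC had an SE of 0.23 (limma adjusted p = 0.738).

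MGMT takes the alkyl group off guanine in a single suicidal step, ALKBH2 and ALKBH3 strip methyl groups from bases by oxidation, and MPG is the glycosylase that starts base excision of alkylated purines. Alkbh3 (ENSMUSG00000040174), the highest of the 4, was at 19.6, 16.5 and 19.0 FPKM in NC, 22.8, 17.2 and 18.8 in CTX and 20.6, 15.9 and 19.4 in HBOT, and its groups overlapped throughout. Alkbh2 (ENSMUSG00000044339) was at 5.25, 4.92 and 6.50 FPKM in NC, 6.67, 7.06 and 6.99 in CTX and 6.21, 5.26 and 6.28 in HBOT. The CTX libraries were the 3 highest of the 9, by 0.28 against NC on the log2 scale (SE 0.13, limma adjusted p = 0.664). In HBOT against CTX the log2 fold change was -0.20 (SE 0.13, limma adjusted p = 0.710).

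Mgmt (ENSMUSG00000054612) was at 4.71, 4.04 and 2.82 FPKM in NC, 3.78, 4.51 and 5.21 in CTX and 2.94, 2.06 and 3.46 in HBOT. HBOT lay below CTX in every library, while NC overlapped both ranges. The log2 fold change in HBOT against CTX was -0.54 (SE 0.20, limma adjusted p = 0.710), and HBOT replicate 2 was again the lowest library. Mpg averaged 12.3 ± 1.69, 11.5 ± 0.816 and 12.1 ± 3.18 FPKM in NC, CTX and HBOT, with log2 fold changes between -0.08 and 0.04 in the 3 comparisons.

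Seen by library, 1 CTX sample and 1 HBOT sample shaped many of these means. CTX replicate 1 held the highest value of the 9 libraries for 20 of the 42 genes (47.6%), against 20.2% of all rows tested. HBOT replicate 2 held the lowest value for 17 genes (40.5%), among them Fance, Rad51d, Rad50, Wrn, Rev3l and Mgmt, close to its 44.1% over all rows. In the same library 6 genes had their highest value (14.3%, against 19.5% of all rows), namely Fancb, Brca1, Xrcc3, Slx4, Ercc1 and Rev1. NC replicates 1 and 2 each held the lowest value for 10 genes (23.8%), against 10.5% and 8.9% of all rows. NC replicate 3 held the lowest for 1 (2.38%, against 7.17%) and the highest for 6 (14.3%, against 10.4%). The median deviation of the 42 genes from their own means was 0.21 log2 units in CTX replicate 1 and 0.13 in NC replicate 3. It was -0.13, -0.13 and -0.15 in HBOT replicate 2 and NC replicates 1 and 2.

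**Figure D3:**
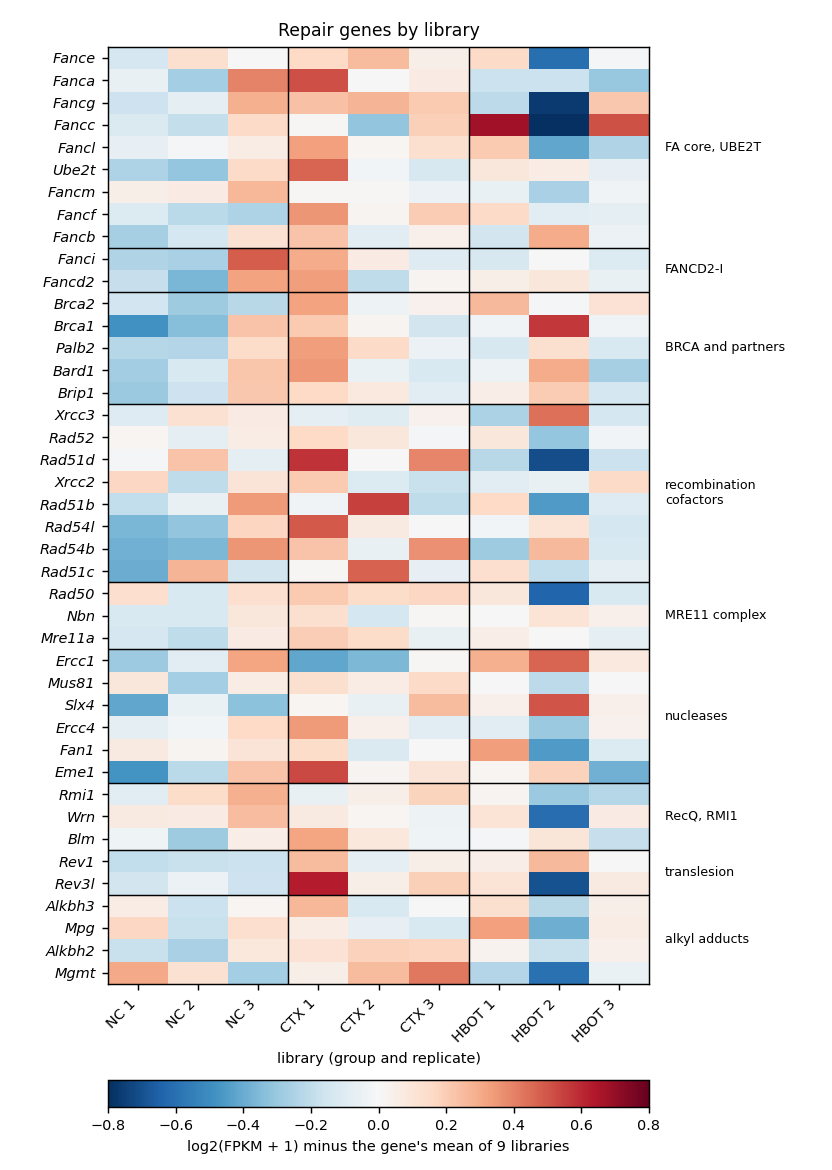
Deviation of log2(FPKM + 1) from the gene's own mean of the 9 libraries, for the 42 genes (rows, by role) and the 9 libraries (columns), red above and blue below the mean. CTX replicate 1 is red for most genes, NC replicates 1 and 2 are blue in the Brca group, and HBOT replicate 2 holds both the deepest blue cells (Fancc, Fancg, Rad51d) and red cells such as Brca1, Slx4 and Ercc1.

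Some of the repair genes followed the S-phase markers from library to library. The sum of 14 such markers, helicase and nucleotide synthesis genes among them, was 171, 190 and 237 FPKM in NC, 310, 215 and 205 in CTX and 209, 336 and 206 in HBOT, so CTX replicate 1 and HBOT replicate 2 were high and NC replicates 1 and 2 low. The sum of 12 markers of G2 and mitosis was 143, 137 and 242 FPKM in NC, 243, 170 and 167 in CTX and 178, 207 and 156 in HBOT. Each gene was set against the mean log2 deviation of the S-phase markers over the 9 libraries with an exact permutation test, a relation chosen after the values had been seen. The test reordered the libraries without regard to group, so its p-values do not set differences between groups aside. At an exact p under 0.05, 13 of the 42 genes (31%) were positively related, against 11% of 13324 rows, and 0 negatively. These were Fancb, Fancd2, Brca1, Palb2, Brip1, Bard1, Rad54l, Rad54b, Eme1, Ube2t, Blm, Nbn and Rev1. None of the 42 had an adjusted p under 0.05 by this exact test over all rows, where 40 rows did.

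Brca1 had the smallest p (Pearson r = 0.93, exact permutation p = 0.000168, adjusted p = 0.0519, Spearman rho = 0.97, exact p = 0.000165). Without CTX replicate 1 and HBOT replicate 2, the libraries farthest from the median of the markers, r was 0.97. Fancb followed at r = 0.93 (exact permutation p = 0.000196, adjusted p = 0.0543, rho = 0.82, exact p = 0.0108) and 0.82 without those libraries. For Bard1 r was 0.90 (exact permutation p = 0.000411, adjusted p = 0.0749, rho = 0.92, exact p = 0.00131), and 0.77 without them. Within groups, taken as deviations from the group means, the 3 genes stayed at r = 0.92, 0.93 and 0.96. No p-value was computed for such deviations. Rad54l (r = 0.80) and Brip1 (r = 0.83) stood at 0.95 and 0.93 without the 2 libraries. Rev1 (r = 0.84) and Blm (r = 0.70) stood at 0.38 and 0.45 and so leaned in part on them. Over all 9 libraries Rev1 had rho = 0.73 (exact p = 0.0311) and Blm rho = 0.87 (exact p = 0.00451). As deviations from group means these 2 genes were at r = 0.85 and 0.72. By role, the related genes over all 9 libraries include 4 of the 5 in the BRCA group, without Brca2 (r = 0.41), and 0 of the 4 alkyl adduct genes. This division depended on the libraries used. Alkbh2, Alkbh3 and Mpg were at r = 0.13, -0.02 and -0.45. Without CTX replicate 1 and HBOT replicate 2 they were at 0.77, 0.01 and 0.05, and Brca2 at 0.24. Without HBOT replicate 2 alone they were at 0.62, 0.58 and 0.05, and Brca2 at 0.59. Mgmt was at r = -0.65 (exact permutation p = 0.0611, adjusted p = 0.250, rho = -0.62, exact p = 0.0857). As deviations from group means its r was -0.93, and without CTX replicate 1 and HBOT replicate 2 it was -0.52.

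**Figure D4:**
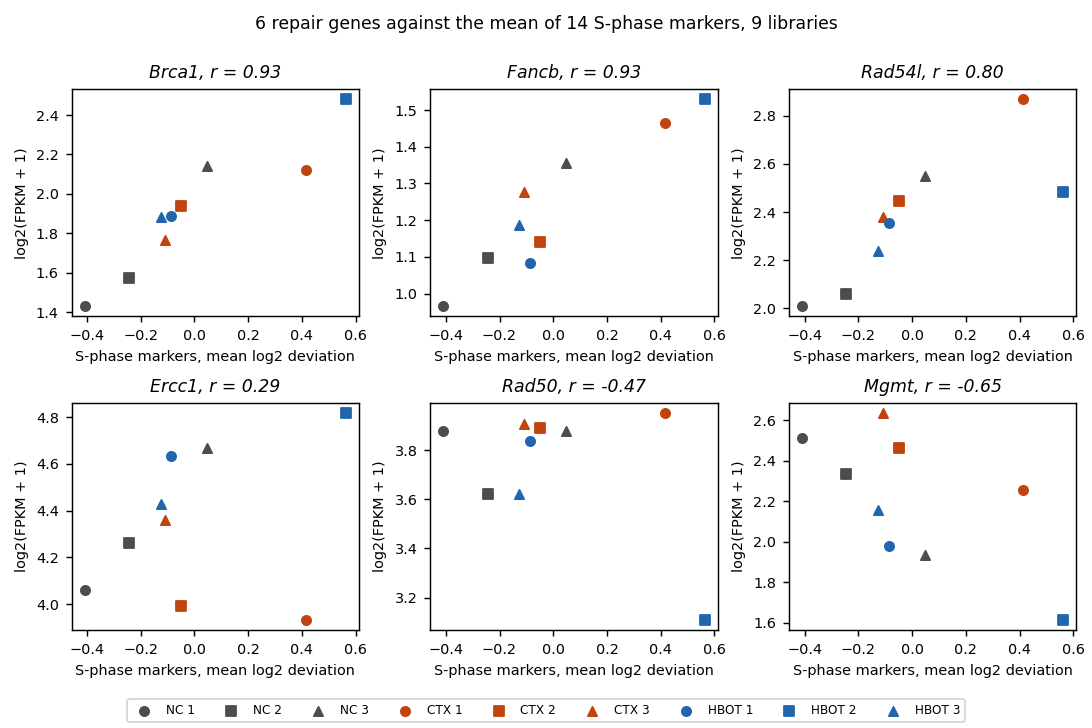
Levels of 6 repair genes as log2(FPKM + 1) against the mean log2 deviation of 14 S-phase markers, 1 point per library, with Pearson r above each panel. Over all 9 libraries Brca1, Fancb and Rad54l climb with the markers (r = 0.93, 0.93 and 0.80), while Ercc1, Rad50 and Mgmt (r = 0.29, -0.47 and -0.65) do not. Without CTX replicate 1 and HBOT replicate 2, r was 0.57 for Ercc1, 0.21 for Rad50 and -0.52 for Mgmt. The negative r of Rad50 leaned on HBOT replicate 2, without which alone it was 0.44.

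Of the 10 S-phase related genes with a promoter window, 6 held CCAAT (Blm, Brca1, Brip1, Fancb, Rad54l and Ube2t) and 1, Bard1, the E2F letters. Of the 24 other genes with a window 12 held CCAAT and 2 the E2F letters, Brca2 and Fancg. Oocyte markers were followed by fewer repair genes. With 12 oocyte markers, 2 of 42 genes were positively related at an exact p under 0.05, against 7.59% of 13326 rows: Brca2 (r = 0.75, exact permutation p = 0.0226, adjusted p = 0.357, rho = 0.58, exact p = 0.108) and Rev1 (r = 0.73, exact permutation p = 0.0281, adjusted p = 0.368, rho = 0.75, exact p = 0.0255). Without NC replicates 2 and 3, the libraries farthest from the median, r was 0.47 and 0.59, and as deviations from group means 0.20 and 0.14. The 2 marker sets make 84 relations in all. Their part in the differences between groups was not tested.

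Further genes of the same pathways were examined from 5 lists of 83 genes, of which 81 passed the filter on low values. The meiotic recombinase gene Dmc1 and Rad51ap2 did not. In CTX against NC 58 of the 81 had a log2 fold change above 0 (median 0.10), in HBOT against CTX 24 (median -0.09) and in HBOT against NC 42 (median 0.03). Of all rows tested, 59.5%, 38.4% and 47.6% were above 0 in these comparisons, with medians of 0.05, -0.07 and -0.01. Limma called 0 of them in any comparison. In CTX against NC, 6 had an unadjusted p under 0.05, where 7.98% of all rows did, and all 6 were higher in CTX: Hmces, Faap100, Top3a, Dna2, Ung and Ercc2. Faap100, which encodes a core complex subunit that stabilises FANCB and FANCL, was at 10.9, 26.8 and 11.3 FPKM in NC, 33.2, 26.2 and 24.8 in CTX and 12.7, 10.04 and 12.1 in HBOT. All HBOT libraries lay below all CTX libraries (log2 fold change -1.20, SE 0.30, limma adjusted p = 0.710), and NC replicate 2 alone among the NC libraries was at the CTX level.

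Hmces, which shields abasic sites in single-stranded DNA, was at 22.6 ± 1.02 FPKM in NC, 29.8 ± 2.77 in CTX and 28.3 ± 2.28 in HBOT. The log2 fold change was 0.38 in CTX against NC (SE 0.11, limma adjusted p = 0.396). Ung, the uracil glycosylase, was at 6.88, 6.37 and 8.51 FPKM in NC, 15.9, 10.7 and 9.94 in CTX and 9.59, 18.03 and 9.86 in HBOT, with NC below the other 6 libraries. Top3a, the topoisomerase that works with BLM and RMI1, was steady in NC, at 5.73, 5.80 and 5.80 FPKM, and in HBOT, at 5.89, 5.44 and 5.80, and higher in CTX, at 7.81, 7.37 and 6.67. In HBOT against CTX, 5 of the 81 had an unadjusted p under 0.05, while 6.09% of all rows did, and all 5 were lower in HBOT: Faap100, Top3a, Rpa3, a subunit of the protein that coats single-stranded DNA, and the glycosylase genes Neil1 and Mutyh. In HBOT against NC Hmces, Cenps and Ung were higher and Mutyh and the translesion polymerase gene Polk lower at that level, 5 of 81 against 11.9% of all rows.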

How the data were processed

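The authors deposited 1 table of FPKM values for 9 libraries, 3 per group, with 22544 rows, 21797 of them with Ensembl identifiers. Per the labels' protocols, polyadenylated RNA from TRIzol extracts was made into VAHTS libraries. The tool fastp 0.23.4 is named and GRCm39 (mm39) is the build, per the submitters' processing notes. For the aligner, counter and annotation, nothing is stated in the labels. The 9 columns were matched by the sample names, with 0 left unmatched. Reads could not be recovered from the low FPKM, so depth is unknown and count models could not be run. FPKM of a library summed to 394046 to 420058.

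On log2(FPKM + 1), limma 3.58.1 (R 4.3.3) was used to fit 1 linear model of the 3 groups (eBayes with trend, 6 residual degrees of freedom), over 13338 rows with at least 1 FPKM in at least 3 libraries. Benjamini-Hochberg adjustment covered every row tested, and the threshold was 0.05. A difference on this scale understates the change of low genes. Relations with markers used all 362880 orders of the 9 libraries, two-sided and without regard to group. Simulated data with 200 changed genes were used to test the fit. Python 3.11.15, scipy 1.17.1 and matplotlib 3.10.9 were used.

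The genes, roles, lists, markers and motifs were chosen with earlier results of these data known. All 9 values are given for the highest gene of each role and, per comparison and direction, the 3 genes of smallest p. Up to 3 genes per further list and comparison could be named, by smallest p. Rev3l and Fancc, whose library values are also given, were added after their values were seen. As alternatives, the pseudocount was set to 0.1, the filter dropped or raised to 5 FPKM, and the fit repeated with TPM, median-of-ratios or quantile scaling, a fit of each pair of groups alone, a block for replicate number, library weights, robust eBayes, each library left out, and HBOT replicate 2 and CTX replicate 1 left out together.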

Additional observations from a re-analysis of the deposited data

How the results depend on the processing

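In 20 alternatives per comparison, 0 of the 42 genes (25 at a filter of 5 FPKM) had a limma adjusted p under 0.05. The smallest was 0.0746, with library weights in HBOT against NC. Among all rows tested, the count of 0 did not hold in every setting. In CTX against NC, 31 rows were called in a fit of these groups alone and 123 with library weights. There were 8 without HBOT replicate 2, 9 without HBOT replicate 3 and 1 without NC replicate 1. With HBOT replicate 2 and CTX replicate 1 both left out there were 16, and 2 in HBOT against CTX. Library weights called 5 rows in HBOT against CTX and 181 in HBOT against NC. Without HBOT replicate 3, 3 rows were called in HBOT against NC. Some other settings called 1 row in these 2 comparisons. With median-of-ratios or quantile scaling 0 rows were called in any comparison. The median log2 fold change of the 42 genes was 0.16 in CTX against NC as reported, -0.16 in HBOT against CTX and 0.03 for HBOT and NC, and in all alternatives it moved from these values by less than the spread between replicates (SD 0.12). It ran from 0.09 to 0.24 in CTX against NC, from -0.19 to -0.07 in HBOT against CTX and from -0.04 to 0.10 in HBOT against NC. With replicate number as a block (the replicate block fit), the unadjusted p was under 0.05 for 2, 3 and 2 genes in the 3 comparisons, against 2, 3 and 3 without it, and 0 were called. Same-numbered libraries correlated at -0.29 to 0.16 in their deviations, over 0.1 in 2 of 9 pairs. Yet 12 of 18 matched best with their own number. These values point in different directions, so whether the number pairs samples was not settled. The genes at an unadjusted p under 0.05 in CTX against NC numbered 0 to 7, and the share of all rows at that level moved too, from 7.98% as reported. There were 6 in a fit of these groups alone (14.2% of all rows), 6 without HBOT replicate 2 (15.8%), 7 with library weights (17% of all rows), 4 without NC replicate 3 (6.63%) and 0 without CTX replicate 1 (5.28%) or CTX replicate 3 (7.84%), with quantile scaling (8.17%) or at 5 FPKM (7.74%). In HBOT against CTX there were 7 without HBOT replicate 1 (9.74% of all rows), 1 without CTX replicate 2 (3.61%) and 1 with HBOT replicate 2 and CTX replicate 1 both left out (11.7%), against 6.09% of all rows as reported. In HBOT against NC there was 1 with TPM (12.1% of all rows) and without CTX replicate 3 (10.7%), NC replicate 1 (6.6%) or NC replicate 2 (6.78%), against 11.9% as reported.

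Both signs of the log2 fold change occurred over the alternatives for 11 of the 42 genes in CTX against NC, 17 in HBOT against CTX (Brca2, Fancc, Mpg, Rev1 and Wrn among them) and 21 in HBOT against NC (Rev3l among them). Among the 3 higher and 3 lower genes of lowest p per comparison, Slx4 and Brca1 turned in HBOT against CTX, at -0.0053 and -0.0093 with library weights. With 1 library left out Slx4 ran from -0.032 to 0.21 and Brca1 from -0.056 to 0.24, and Slx4 was at -0.059 with HBOT replicate 2 and CTX replicate 1 both left out. The cause was not tested. Between 10 and 18 genes were related to the S-phase markers at an exact p under 0.05 when 1 library was left out, 18 without HBOT replicate 2. Between 12 and 14 were with another pseudocount or scaling. The unknown read depth limits most the 20 genes under 5 FPKM.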
